A study of Mus musculus with 4 samples.

Results

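The early B lineage transcription factors examined here were Ebf1, Pax5, Lef1, Foxo1, Ikzf1, Ikzf3, Bcl11a, Spib, Pou2af1 and Bach2. These 10 genes were taken by symbol from the 24421 genes of the deposited table of read counts, and all 10 were present and had enough reads to be tested, among 14140 genes tested in all. RNA was sequenced from LSK cells, the fraction of mouse bone marrow that lacks lineage markers and carries Kit and Sca-1, where stem cells and the earliest multipotent and lymphoid-primed progenitors are found. There were 2 libraries from Zfp521 knockout mice (KO, Zfp521-/-) and 2 from control littermates that the labels call wild type (WT). The labels give no age, sex, strain or allele design for either genotype and name no treatment, Cre driver or tissue restriction, so other cells of the marrow could lack Zfp521 too. The series' design text speaks of pools of cells and of independent RNA samples, and does not tell whether the samples of a genotype are from different mice. The p-values therefore describe the variation among the sequenced samples, and some of it may be technical.

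B lineage specification runs as a network of transcription factors. Ikaros (Ikzf1), the E proteins and PU.1 act in multipotent progenitors and open the lymphoid program. Ebf1 is then switched on, with input from E proteins, Foxo1 and interleukin-7 signals, and it turns on Pax5, which locks cells into the B lineage. Together they activate the genes of the pre-B receptor and of antigen receptor rearrangement. Zfp521 is a zinc finger cofactor that is known to bind Ebf1 protein. Only a minor share of normal LSK cells has begun the B program, so in bulk RNA of this fraction fewer cells of a type and less RNA per cell cannot be told apart.

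Ebf1 and 3 of the factors that depend on or act beside it fell together in KO, while the other 6 did not pass the test. Lower were Ebf1, Lef1, Pax5 and Pou2af1, with levels of 15.2%, 16.7%, 24.15% and 30.6% of WT. No factor was called higher, also at an unadjusted p under 0.05 and in DESeq2 (0 each), and 6 were not called, namely Ikzf1, Foxo1, Bcl11a, Bach2, Spib and Ikzf3. In the lower direction these looser settings took in more factors. At an unadjusted p under 0.05 in edgeR 6 were lower, with Ikzf1 and Foxo1 added. DESeq2 called 5 lower, with Ikzf1 added, where it called 5.74% of genes lower. Across all genes tested, 3.01% were called lower, 3.77% higher and 6.78% in either direction (edgeR quasi-likelihood test, Benjamini-Hochberg adjusted p under 0.05). The median log2 fold change of KO over WT was -0.56 for the 10 factors and 0.02 for all genes tested. Both KO libraries lay below both WT libraries for 7 of the 10 factors, and no factor had both above; over all genes tested 27.6% lay below and 28.8% above, 56.5% together, so a gap between groups of 2 libraries is common in these data.

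The bases just before the transcription start are shown for the 4 factors that fell, and for Foxo1, whose window was the one among those of the 10 factors with the EBF palindrome. These are the 250 bases before a RefSeq start in GRCm38.p6, the assembly that mm10 denotes, read 5′ to 3′ on the gene's strand. Capitals mark the E-box CANNTG, the core bound by E proteins and other basic helix-loop-helix factors, and the EBF palindrome (TCCC, any 2 bases, GGGA); both motifs read the same on either strand and they did not overlap here. The positions are chr11:44619978-44620227 (plus strand) for Ebf1, chr4:44710695-44710944 (minus strand) for Pax5, chr3:131110047-131110296 (plus strand) for Lef1, chr9:51213440-51213689 (plus strand) for Pou2af1 and chr3:52268087-52268336 (plus strand) for Foxo1.
Ebf1: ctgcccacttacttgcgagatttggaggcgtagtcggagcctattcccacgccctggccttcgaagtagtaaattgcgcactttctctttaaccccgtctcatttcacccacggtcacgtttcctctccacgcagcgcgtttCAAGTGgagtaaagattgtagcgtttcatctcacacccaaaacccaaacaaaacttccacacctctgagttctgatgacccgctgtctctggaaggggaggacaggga
Pax5: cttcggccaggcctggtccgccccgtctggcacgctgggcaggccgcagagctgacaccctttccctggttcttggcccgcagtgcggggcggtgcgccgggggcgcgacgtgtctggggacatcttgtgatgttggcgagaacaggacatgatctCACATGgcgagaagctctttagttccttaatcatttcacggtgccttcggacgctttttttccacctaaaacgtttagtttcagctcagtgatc
Lef1: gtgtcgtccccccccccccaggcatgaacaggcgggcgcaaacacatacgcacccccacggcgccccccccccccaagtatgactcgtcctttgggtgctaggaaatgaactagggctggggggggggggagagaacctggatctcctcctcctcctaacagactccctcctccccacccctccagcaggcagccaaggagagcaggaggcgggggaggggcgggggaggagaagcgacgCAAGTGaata
Pou2af1: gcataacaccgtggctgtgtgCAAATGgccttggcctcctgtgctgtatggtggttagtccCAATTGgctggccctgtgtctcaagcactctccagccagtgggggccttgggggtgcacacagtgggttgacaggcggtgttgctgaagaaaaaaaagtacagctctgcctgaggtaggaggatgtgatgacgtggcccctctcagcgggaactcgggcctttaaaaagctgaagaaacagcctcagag
Foxo1: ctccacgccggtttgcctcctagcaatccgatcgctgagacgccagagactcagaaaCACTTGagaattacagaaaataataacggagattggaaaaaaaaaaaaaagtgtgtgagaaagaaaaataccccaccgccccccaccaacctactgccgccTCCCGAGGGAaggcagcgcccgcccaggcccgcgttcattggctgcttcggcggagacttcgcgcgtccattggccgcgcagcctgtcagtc
RefSeq windows were found for 9 of the 10 factors, 14 windows in all; Ikzf3 is named only. For Ebf1 the second window is shown, since the first lies inside an annotated exon of the gene, and for Lef1 the first of 4. An E-box stood in 10 of the 14 windows, belonging to 7 factors, and in 66.2% of the 32851 windows of the same length across RefSeq genes. The Ebf1 window had it 108 bases before the start, as CAAGTG, and the Pax5 window 94 bases before, as CACATG. The EBF palindrome stood in 1 of the 14 windows, that of Foxo1, as TCCCGAGGGA 92 bases before the start; 0.779% of all windows hold it. A match of this kind describes the letters of the window and does not show that a factor binds there.

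Zfp521 itself, the targeted gene, had 308 and 215 counts in KO and 1561 and 1429 counts in WT. Scaled to library size that was 13.9 and 10.9 CPM (counts scaled to library size with TMM factors) in KO, against 56.1 and 57.5 CPM in WT, a log2 fold change of -2.19 (SE 0.23, edgeR adjusted p = 0.000491). The counts cover the whole gene and do not locate the remaining KO reads within it.

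Library totals ran from 17787425 to 22000036 counts in KO and from 25813391 to 29863594 in WT, and 3 counts, taken as the floor of detection, correspond to at most 0.152 CPM. This floor covers counting error only. WT replicate 2 had 606 Xist counts and 5606 counts over 4 Y-linked genes, the pattern of male cells, while the other 3 libraries had at least 160613 Xist counts and at most 14 Y-linked counts. Kit was at 697 and 702 CPM in KO and 617 and 708 CPM in WT, and Ly6a, which encodes Sca-1, at 37.3 and 67.0 CPM in KO and 47.7 and 36.9 CPM in WT, so both genes that define the sort were present in all libraries. Among markers of other cells, Hba-a1 had no read in any library and Cd3e was below 1 CPM in all 4. Marker lists of conventional dendritic cells, mast cells and neutrophils were higher in KO, and their values are given beside the results below.

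Ebf1, early B cell factor 1, is the pioneer regulator that first commits progenitors to the B program. It lies on chromosome 11, from 44617317 to 45008091 on the plus strand of mm10. Ebf1 had 368 and 154 counts in KO and 1816 and 2390 counts in WT, or 16.6 and 7.825 CPM in KO against 65.2 and 96.2 CPM in WT. The groups were well apart: the higher KO library was below the lower WT library by a wide margin, although KO replicate 1 held 2.13 times the CPM of KO replicate 2. The log2 fold change was -2.72 (95% interval -3.44 to -1.99, edgeR adjusted p = 0.0011), and 49 of the 14140 genes tested had a lower one. It stayed called in all 11 alternatives, between -3.37 without KO replicate 1 and -2.29 without KO replicate 2.

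Pax5, the paired box factor that keeps B cells committed, lies on chromosome 4 from 44524757 to 44710487, minus strand. Its counts were 162 and 54 in KO and 537 and 561 in WT. This gave 7.325 and 2.74 CPM in KO, against 19.3 and 22.6 CPM in WT, so KO replicate 1 again stood above KO replicate 2 while both lay below WT. Its log2 fold change was -2.05 (95% interval -2.98 to -1.12, edgeR adjusted p = 0.0181), the least secure of the 4 calls. It missed the threshold without WT replicate 2, the library with the male pattern (-1.95, adjusted p = 0.0877), where a lone WT library is assumed to vary as the KO libraries do. A gene annotated on the opposite strand within Pax5, 5730488B01Rik, shares 636 exon bases with it and had 2 and 0 counts in KO and 23 and 22 in WT; the strand setting of the counting is not known here.

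Lef1 is a high mobility group factor that acts with beta-catenin in Wnt signalling and is known for sustaining pro-B cells. On chromosome 3 it spans 131110471 to 131224356 on the plus strand. Lef1 had 102 and 97 counts in KO and 864 and 651 counts in WT, or 4.61 and 4.93 CPM in KO and 31.0 and 26.2 CPM in WT. The KO libraries were nearly equal here, unlike for Ebf1 and Pax5. Its log2 fold change was -2.58 (95% interval -3.24 to -1.93, edgeR adjusted p = 0.000868), and with any 1 library left out it stayed between -2.72 and -2.46. Of the 4 factors that fell, Lef1 had the narrowest range under such omissions. An antisense gene annotated over Lef1, Gm43352, shares 1208 exon bases with it and has no row of its own in the deposited counts.

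Pou2af1 encodes OCA-B, a B cell coactivator that does not bind DNA alone but joins the octamer-binding proteins Oct-1 and Oct-2. It is on chromosome 9, from 51213708 to 51240080 on the plus strand. Pou2af1 had 2086 and 1183 counts in KO and 6148 and 7040 in WT, which is 94.3 and 60.1 CPM in KO against 221 and 283 CPM in WT. The fall was smaller in fold than that of Ebf1 but larger in reads than that of any other called factor. The log2 fold change was -1.71 (95% interval -2.18 to -1.23, edgeR adjusted p = 0.00139), and it stayed called in all 11 alternatives.

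**Figure D1:**
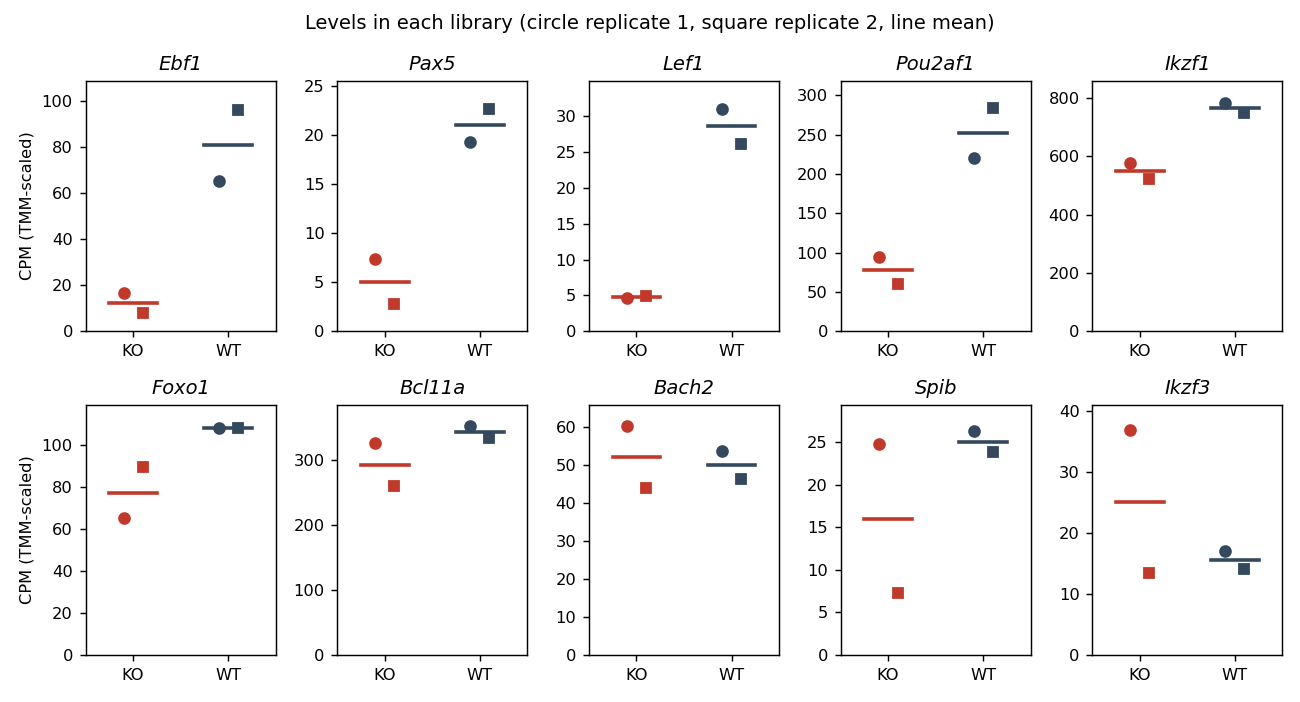
CPM of each of the 10 factors in every library, with KO on the left and WT on the right of each panel; circles are replicate 1, squares replicate 2 and lines the mean of 2 libraries, and each panel has its own scale from 0. Ebf1, Pax5, Lef1 and Pou2af1 lie far below WT in both KO libraries, while Spib and Ikzf3 are split between the KO libraries, at 24.8 and 7.27 CPM and at 36.8 and 13.5 CPM.

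Ikzf1, Foxo1, Bcl11a and Bach2, which work upstream of Ebf1 or beside it in progenitors, did not pass the test. Ikzf1 (Ikaros), which primes multipotent cells for lymphoid fates, is on chromosome 11 from 11685003 to 11772926. It had 578 and 523 CPM in KO and 782 and 748 CPM in WT, from 10292 to 21771 counts a library. The KO libraries were both below WT and close to each other. The log2 fold change was -0.47 (95% interval -0.77 to -0.18, edgeR adjusted p = 0.0574), just outside the threshold, and the interval corresponds to between 58.6% and 88.3% of WT. DESeq2 called it lower (adjusted p = 0.0162), in a test where 5.74% of genes were called lower, and the adjusted p ran from 0.00285 to 0.353 over the 11 alternatives. Whether Ikzf1 is counted as lower therefore turns on the method, while the low end of its interval, -0.77, lay above the high end of the Ebf1 interval, -1.99.

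Foxo1, a forkhead factor that supports Ebf1 expression and activates Il7r and the Rag genes, is on chromosome 3 from 52268336 to 52353221. Foxo1 was at 65.4 and 89.3 CPM in KO and at 108 CPM in both WT libraries. Here KO replicate 1 was the lower of the KO pair, the reverse of Ebf1 and Pax5. The log2 fold change was -0.48 (95% interval -0.89 to -0.08, edgeR adjusted p = 0.133), so a loss to 54.1% of WT is still allowed, but not one of the size seen for Ebf1. Without KO replicate 2 it was called at -0.73 (adjusted p = 0.0189), and without KO replicate 1 it was at -0.28 (adjusted p = 0.328). An antisense gene that is annotated over Foxo1 shares 674 exon bases with it.

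Bcl11a, a zinc finger factor needed for B cell development and better known as a repressor of fetal globin in erythroid cells, is on chromosome 11 from 24078056 to 24174123. Its CPM values were 325 and 259 in KO and 352 and 334 in WT. The gap between the groups was smaller than the gap between the KO libraries. With a log2 fold change of -0.23 (95% interval -0.57 to 0.11, edgeR adjusted p = 0.382) it was not called in any of the 11 alternatives. Bach2, a repressor that favours lymphoid over myeloid genes in progenitors and later delays plasma cell formation, lies on chromosome 4 from 32238804 to 32586108. Bach2 was at 60.1 and 43.85 CPM in KO and at 53.6 and 46.25 CPM in WT, with the KO libraries on both sides of the WT pair. Its log2 fold change of 0.06 (95% interval -0.41 to 0.52, edgeR adjusted p = 0.898) was the nearest to 0 among the 10, and the interval allows between 75.4% and 144% of WT. Bach2os, annotated on the opposite strand, had at most 15 counts in a library.

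**Figure D2:**
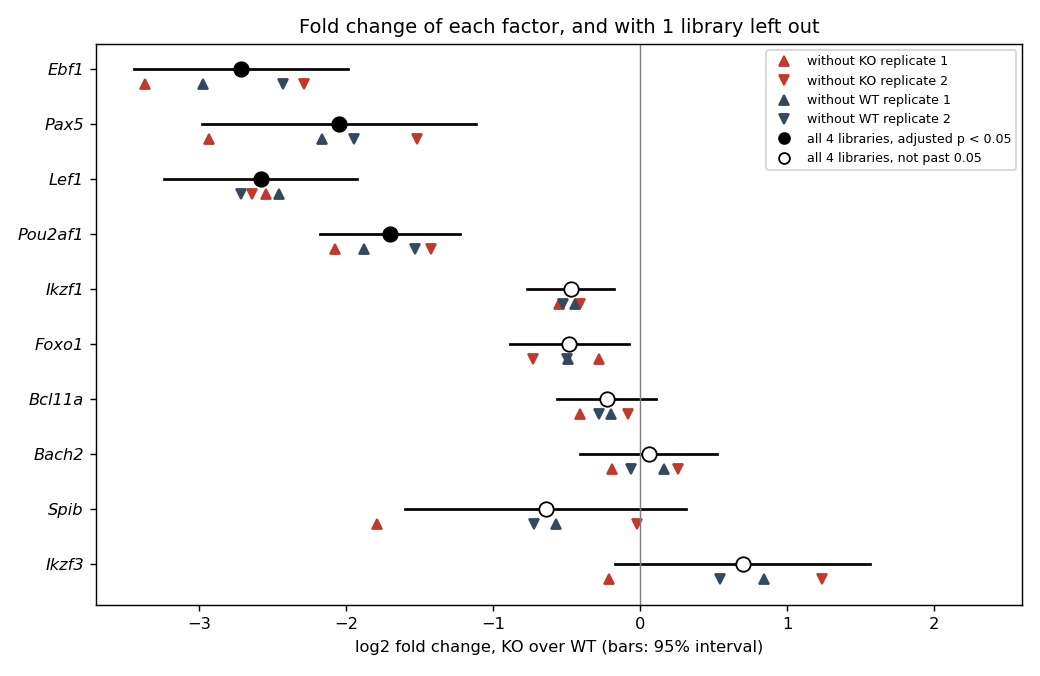
Log2 fold change of KO over WT for each factor, with 95% intervals (bars) and the values when 1 library is left out (triangles, red for KO and blue for WT libraries). With all 4 libraries the intervals of Ebf1, Lef1, Pax5 and Pou2af1 end at or below -1.12, and those of Ikzf1, Foxo1, Bcl11a and Bach2 begin at or above -0.89. The same test gave the intervals and the calls, so a gap between these sets is partly built in. Spib and Ikzf3 have wide intervals that include 0, and that of Spib (-1.60 to 0.31) overlaps those of Pax5 and Pou2af1.

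Left-out libraries also brought the intervals of Pax5 and Foxo1 together. Without KO replicate 2 the Pax5 interval ended at -0.755 and the Foxo1 interval began at -1.12, and without WT replicate 2 these ends were -0.775 and -1.07. The fold changes themselves stayed apart, at or below -1.43 for the 4 called factors and at or above -0.73 for Ikzf1, Foxo1, Bcl11a and Bach2 with any 1 library left out. Spib, in neither set, was among the values of the called factors without KO replicate 1, at -1.79.

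Spib and Ikzf3 were not placed with either set, as they were not called and the KO libraries went apart. Pax5, which was called, had a gap between the KO libraries close to that of Ikzf3 (2.67 and 2.73 times). Spib, an Ets factor related to PU.1 that serves B cells and plasmacytoid dendritic cells, is on chromosome 7 from 44525993 to 44532071, minus strand. It had 548 and 143 counts in KO and 731 and 593 in WT, or 24.8 and 7.27 CPM in KO and 26.3 and 23.9 CPM in WT. KO replicate 1 lay within the WT range and KO replicate 2 far below it. As a log2 fold change this was -0.64 (95% interval -1.60 to 0.31, edgeR adjusted p = 0.389); it was -1.79 without KO replicate 1 (adjusted p = 0.00343) and -0.03 without KO replicate 2 (adjusted p = 0.978).

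Ikzf3 (Aiolos), the Ikaros relative of later B cell stages, lies on chromosome 11 from 98464902 to 98546031, minus strand. Ikzf3 had 813 and 265 counts in KO and 474 and 348 in WT, or 36.8 and 13.5 CPM in KO and 17.0 and 14.0 CPM in WT. KO replicate 1 was above both WT libraries and KO replicate 2 just below them. On the log2 scale the fold change was 0.70 (95% interval -0.17 to 1.56, edgeR adjusted p = 0.306), and its direction turned with a single library: -0.21 without KO replicate 1 and 1.23 without KO replicate 2 (adjusted p = 0.0136).

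Several other factors shared this gap between the KO libraries. KO replicate 1 exceeded KO replicate 2 by 3.41 times for Spib, 2.73 times for Ikzf3, 2.67 times for Pax5, 2.13 times for Ebf1 and 1.57 times for Pou2af1. The ratio was smaller for Bach2 (1.37), Bcl11a (1.25) and Ikzf1 (1.105), while Lef1 had a ratio of 0.936 and Foxo1 one of 0.733. A wider gap than that of Spib between the KO libraries was seen for 4.84% of all genes tested, and a wider one than that of Ebf1 for 11.6%; the median gap was 1.26 times. Siglech, a surface receptor of plasmacytoid dendritic cells, showed the same order of the KO libraries, with 9.13 and 3.15 CPM in KO and 1.58 and 0.121 CPM in WT. Its WT libraries differed widely as well, unlike those of Spib. Other tested markers of these cells were split. Ccr9, Cox6a2, Tcf4, Runx2 and Il3ra had the order of Siglech. Bst2 (2.26 and 3.30 CPM in KO), Pacsin1 (5.29 and 5.44 CPM) and Ly6d (5.97 and 6.40 CPM) had the opposite order. The whole list of plasmacytoid dendritic cell markers did not stand out: of 9 tested members none was called by edgeR, 1 had an unadjusted p under 0.05 and DESeq2 called 1 higher. The summed level was 890 and 815 CPM in KO and 765 and 822 CPM in WT, and Klk1 was at 0 in all libraries. The part of these cells in the Spib and Ikzf3 values was not tested.

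**Figure D3:**
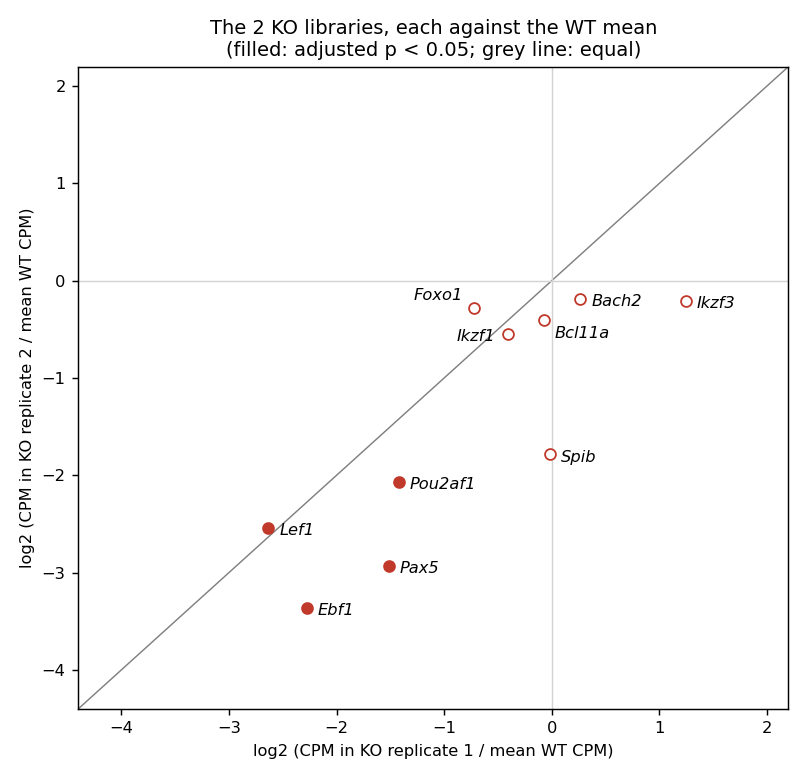
Log2 ratio to the WT mean CPM of each factor in KO replicate 1 (horizontal) and KO replicate 2 (vertical); filled points passed the test and the grey line marks equal values. Lef1 is close to the line at -2.63 and -2.54, Foxo1 lies above it, and Spib (-0.02 and -1.79) and Ikzf3 (1.24 and -0.20) lie farthest below it.

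Levels per length put the factors on a common scale, as TPM (counts divided by exon length, then scaled to the library). Ikzf1 was the most abundant of the 10 in both genotypes, at 455 ± 7.31 TPM in KO and 564 ± 0.681 TPM in WT (SD, n = 2 each). It was followed by Pou2af1, at 144 ± 37.5 TPM in KO and 423 ± 87.7 TPM in WT, and Bcl11a, at 106 ± 11.1 TPM in KO and 111 ± 0.401 TPM in WT. Pou2af1 and Bcl11a were far apart in WT and close in KO, where the longest transcript as the length put Bcl11a ahead of Pou2af1. Foxo1 came next, at 42.9 ± 11.6 TPM in KO and 53.2 ± 1.80 TPM in WT.

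Spib, at 26.1 ± 19.2 TPM in KO and 37.2 ± 1.29 TPM in WT, and Bach2, at 24.9 ± 4.16 TPM in KO and 21.4 ± 1.54 TPM in WT, did not differ beyond their spread in KO. Ebf1 ranked 8 of 10 in KO and 6 of 10 in WT. In TPM it was at 5.91 ± 2.73 in KO and 35.4 ± 10.7 in WT, where its spread took in the level of Spib. With the longest transcript as the length it ranked 8 in KO and 4 in WT. Pax5 and Lef1 were the lowest pair in KO, at 2.67 ± 1.60 and 2.599 ± 0.263 TPM, within their spread, against 10.1 ± 1.45 and 13.9 ± 1.20 TPM in WT. Ikzf3 was at 13.5 ± 8.25 TPM in KO and at 7.54 ± 0.792 TPM in WT, the lowest level in WT, where the longest transcript as the length put Pax5 lowest.

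Ratios within a library show how the makeup of the network shifted without any scaling between libraries. For each transcript of Ebf1 there were 58.65 and 113 of Ikzf1 in the KO libraries, and 20.25 and 13.1 in the WT libraries. Foxo1 stood at 4.43 and 12.85 times the Ebf1 level in KO, against 1.86 and 1.27 times in WT, and Bach2 at 3.55 and 5.50 times in KO, against 0.807 and 0.472 times in WT. Each of these ratios was higher in both KO libraries than in both WT libraries. Ebf1 had the lowest log2 fold change of the 10 factors, so higher ratios to it restate its fall and are no separate result. The ratio of Pax5 to Ebf1 was also higher in both KO libraries but by less, at 0.485 and 0.386 times its level in KO and 0.326 and 0.259 times in WT, and Lef1 overlapped, at 0.308 and 0.699 times in KO and 0.528 and 0.302 times in WT. Ebf1 made up 0.892% and 0.520% of the summed TPM of the 10 factors in KO and 2.31% and 3.20% in WT. These ratios are given as a description, since an exact permutation test with 2 libraries a group cannot give a p below 0.333.

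Many genes listed as targets that Ebf1 and Pax5 activate were lower beside them. Of 20 such genes tested, 11 were lower, none higher and 9 not called (edgeR adjusted p under 0.05; 0 higher also at an unadjusted p under 0.05 and in DESeq2), with a median log2 fold change of -2.20 beside 0.02 for all genes. Rag1, a subunit of the recombinase, was at 8.18 and 10.3 CPM in KO and 99.9 and 103 CPM in WT (log2 fold change -3.46), and its partner Rag2 at 13.1 and 11.9 CPM in KO and 85.0 and 75.0 CPM in WT (-2.67). Foxo1 also activates the Rag genes, and which factor their fall follows was not tested. Igll1, part of the surrogate light chain, was at 5.38 and 4.67 CPM in KO and 55.0 and 84.5 CPM in WT (-3.79), and Akap12, a kinase scaffold, at 11.4 and 15.2 CPM in KO and 60.4 and 69.8 CPM in WT (-2.29). The list summed to 168 and 154 CPM in the KO libraries, against 627 and 712 CPM in the WT libraries. Between 11 and 14 of its genes were lower with 1 library left out.

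Of the inputs to Ebf1, most did not pass. Among 18 genes for factors, cytokine receptors and kinases that act before it, 2 were lower, 1 was higher and 15 were not called. Their median log2 fold change was -0.18, with 12 negative and 6 positive. At an unadjusted p under 0.05 in edgeR, 4 were lower and 3 higher. Both KO libraries lay below both WT libraries for 9 and above them for 6, against 27.6% and 28.8% of all genes tested. Il7r, the interleukin-7 receptor chain, was at 24.6 and 21.1 CPM in KO and 34.9 and 60.5 CPM in WT (log2 fold change -1.06, edgeR adjusted p = 0.0424). Without WT replicate 2, the higher of the WT pair, Il7r missed the threshold (adjusted p = 0.361). Cbfb, the partner subunit of Runx factors, was at 200 and 173 CPM in KO and 316 and 310 CPM in WT (-0.75, adjusted p = 0.0147). Jak3, the kinase that signals from the interleukin-7 receptor, was higher, at 147 and 140 CPM in KO and 76.2 and 84.9 CPM in WT (0.83, adjusted p = 0.0134). Cbfb and Jak3 missed the threshold without either WT library. Flt3, a receptor of lymphoid-primed progenitors, was at 545 and 607 CPM in KO and 418 and 456 CPM in WT and was not called (0.40, adjusted p = 0.104). Also not called were the E protein genes Tcf3 and Tcf12 and the PU.1 gene Spi1. Tcf3 was at 122 and 72.2 CPM in KO and 128 and 149 CPM in WT (-0.51, edgeR adjusted p = 0.188). Spi1 was at 87.2 and 52.9 CPM in KO and 112 and 93.2 CPM in WT (-0.55, adjusted p = 0.159), and Tcf12 had -0.15 (adjusted p = 0.597).

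The paralogs of the 10 factors showed few calls. Of 13 tested, 1 was higher and 12 were not called by edgeR, with a median of 0.21. Over all genes tested 3.01% were called lower and 3.77% higher, so the absence of a lower call does not set the paralogs apart. None was lower at an unadjusted p under 0.05 or in DESeq2 (0 each), or with any 1 library left out. Ikzf2 (Helios), an Ikaros relative of stem cells and T cells, was the higher one, at 337 and 384 CPM in KO and 229 and 257 CPM in WT (log2 fold change 0.57, edgeR adjusted p = 0.0433). It missed the threshold without either WT library or KO replicate 2. Ebf4, an Ebf1 relative, had 44 and 27 counts in KO and 5 and 3 in WT and was not called by edgeR (3.43, adjusted p = 0.062), but was called higher by DESeq2 (adjusted p = 0.0454) and with the stricter filter (adjusted p = 0.0422), over a range of 0.0291 to 0.352 in all alternatives, while Ebf2 had at most 1 count in a library. Tcf7l1 (-0.75, adjusted p = 0.373) and Ikzf4 (0.57, adjusted p = 0.467) were not called.

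Among 17 tested partners and cofactors of the 10 factors, 5 were lower, 1 was higher and 11 were not called, with a median of -0.13. The 5 were Zfp521, Dnmt1, Hdac2, Hdac1 and Smarca4. Irf8, which pairs with PU.1 and Spi-B, was higher, at 72.2 and 50.7 CPM in KO and 31.8 and 24.9 CPM in WT (log2 fold change 1.12, edgeR adjusted p = 0.0192). Dnmt1, the maintenance DNA methyltransferase, was at 353 and 278 CPM in KO and 543 and 472 CPM in WT (-0.69, adjusted p = 0.027), and Hdac2, a histone deacetylase, at 119 and 118 CPM in KO and 190 and 172 CPM in WT (-0.61, adjusted p = 0.037). With either WT library left out, these 3 genes were no longer called, and neither were Hdac1 and Smarca4. The partner still called lower was Zfp521, the targeted gene, whose fall is part of the knockout design. Of 8 regulators of later B and plasma cells, 1 was higher and none lower by edgeR, with a median of 0.30; 1 was lower at an unadjusted p under 0.05 and 0 in DESeq2. The gene called higher was Bcl6, the repressor of germinal centre B cells that macrophages and dendritic cells also express, at 40.9 and 28.7 CPM in KO and 10.3 and 8.86 CPM in WT (1.86, adjusted p = 0.00418). Irf4 (-0.71), Prdm1 (0.81) and Klf2 (-0.80) were not called, with adjusted p-values of 0.129, 0.149 and 0.293.

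**Figure D4:**
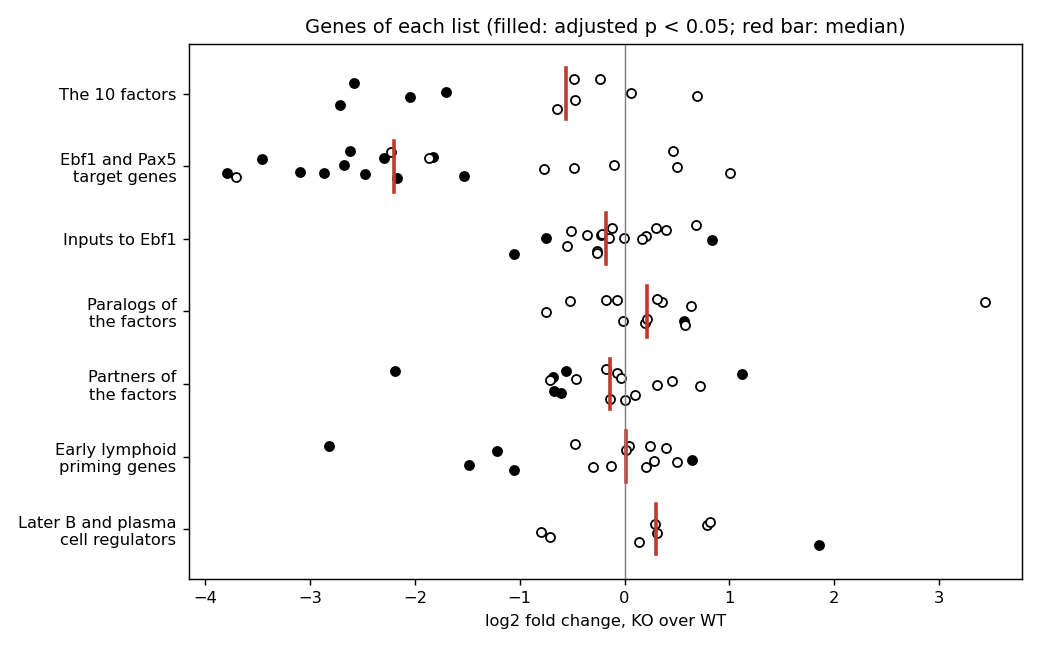
Log2 fold change of KO over WT for the tested genes of each list, 1 point a gene (filled where the adjusted p was under 0.05), with the list median as a red bar; the far left filled point among the partners is Zfp521. The target genes of Ebf1 and Pax5 have a median of -2.20, against -0.18 for the inputs to Ebf1 and 0.21 for the paralogs.

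Early lymphoid priming genes, which mark progenitors before B commitment, were split. Of 15 tested, 4 were lower (Dntt, Hes1, Cnn3 and Il7r), 1 higher and 10 not called, with a median of 0.02. Dntt, the terminal transferase, was at 216 and 162 CPM in KO and 582 and 474 CPM in WT (log2 fold change -1.48, edgeR adjusted p = 0.00101), and stayed called with any 1 library left out. Hes1, a Notch target, was at 1.22 and 1.63 CPM in KO and 5.53 and 14.6 CPM in WT (-2.82, adjusted p = 0.0152), and Cnn3, a calponin, at 10.3 and 15.4 CPM in KO and 28.1 and 31.6 CPM in WT (-1.22, adjusted p = 0.0294). Hes1 missed the threshold without WT replicate 2, and Cnn3 without either WT library; without WT replicate 2 a single gene of the list remained lower.

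The mature B cell markers gave no uniform direction beside the fall of Ebf1 and Pax5. Of 10 tested, 2 were lower (both also among the targets), 1 higher (Cd74, also among the dendritic cell markers) and 7 not called, with summed levels of 527 and 414 CPM in KO against 266 and 287 CPM in WT. Without Cd74, left out after its values were seen, the sum was 133 and 131 CPM in KO against 209 and 233 CPM in WT, the opposite direction. Ms4a1, which encodes CD20 of mature B cells, was at 3.98 and 5.69 CPM in KO and 3.66 and 3.34 CPM in WT and was not called (log2 fold change 0.46, edgeR adjusted p = 0.606). Higher in KO were several markers of myeloid cells. Conventional dendritic cell markers were higher for 8 of 11 tested, with summed levels of 1598 and 1479 CPM in KO against 556 and 596 CPM in WT, and mast cell and basophil markers for 6 of 10, with 417 and 277 CPM in KO against 155 and 154.8 CPM in WT. Neutrophil markers were higher for 6 of 10, with 1087 and 853 CPM in KO against 399 and 574 CPM in WT, and that count was 1 without WT replicate 1. Erythroid markers were higher for 1 of 6, Car1, with 1684 and 991 CPM in KO against 748 and 1071 CPM in WT, and Hbb-bt and Hba-a1 were at 0 in all libraries. All 6 tested had a positive log2 fold change, with a median of 1.31, and 3 were higher in DESeq2, 4 without KO replicate 2, 3 without WT replicate 2 and 5 with no filter. Of 9 markers of T and NK cells none was called by edgeR, 2 had an unadjusted p under 0.05 and DESeq2 called 1 lower, with 81.2 and 87.4 CPM in KO against 84.1 and 78.0 CPM in WT. Of 11 markers of LSK cells 1, Cd34, was lower (-0.61, adjusted p = 0.0408, lost without KO replicate 2, without either WT library and with upper quartile factors), with 3709 and 3439 CPM in KO against 3343 and 3514 CPM in WT. The part of these shifts in cell makeup in the fall of the 4 factors was not tested.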

How the data were processed

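The authors deposited raw read counts per gene symbol for 4 libraries, 2 KO and 2 WT. Per the submitters' processing notes, HTSeq 0.8.0, TopHat2 2.1.1, Picard 2.9.4 and SAMtools 1.5 were used with the mm10 build; for the annotation, the strand setting and duplicates no source used here says what was done. If strand was not used, reads of antisense genes cannot be told apart from those of the gene. The deposited counts went unaltered into edgeR 4.0.16 (R 4.3.3), with TMM factors, filterByExpr (minimum count 10, minimum total 15), quasi-likelihood test, Benjamini-Hochberg adjustment over all genes tested, threshold 0.05. SE is the fold change over the root of F, and intervals are 95%. TPM used GENCODE M21 exon union lengths, without Rn45s. Steps were tested on simulated counts. Alternatives were DESeq2 1.42.0, other factors and filters, each library left out, and a replicate block. The members and lists were chosen with earlier results of these data known. Besides the 10 factors and Zfp521, each pathway list gives up to 4 genes with the smallest p. Marker genes, Ebf2, Hdac1, Smarca4, Tcf3, Tcf12, Spi1, Ms4a1, Siglech and the sequences shown were chosen after values were seen. Some genes counted in the lists are not reported here by name. Replicate libraries differed by more than sampling noise (mean chi-square per gene of 54.3 in KO and 39.5 in WT).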

Additional observations from a re-analysis of the deposited data

How the results depend on the processing

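Ebf1, Lef1 and Pou2af1 were called lower under all 11 alternatives, and Bcl11a, Bach2 and Ikzf3 under none. Bcl11a and Bach2 were not called higher under any either. With 1 library left out, log2 fold changes ran from -3.37 to -2.29 for Ebf1, -2.94 to -1.52 for Pax5 (adjusted p = 0.0877 without WT replicate 2), -2.72 to -2.46 for Lef1, -2.08 to -1.43 for Pou2af1, -0.56 to -0.41 for Ikzf1, -0.73 to -0.28 for Foxo1, -1.79 to -0.026 for Spib, -0.21 to 1.23 for Ikzf3 and -0.20 to 0.26 for Bach2. Bach2 reversed without WT replicate 2 (-0.06) and without KO replicate 1 (-0.20), as Ikzf3 did without KO replicate 1 (-0.21), with no call. Ikzf1 was called with no filter (-0.49), in DESeq2 (-0.49) and without KO replicate 1 (-0.56). Called members numbered 3 to 6 lower and 0 to 1 higher with 1 library left out. Over all genes, higher and lower calls numbered 533 and 425, against 1056 and 987 with no filter and 854 and 817 in DESeq2; with 1 library left out they ran from 160 to 997 and from 95 to 1161. Upper quartile factors gave 664 and 289. The replicate block, which pairs libraries that share only a number (correlation of their deviations 0.105), gave 1312 higher and 1314 lower, 7 members lower, and calls for Ikzf1 (-0.48), Foxo1 (-0.50) and Spib (-0.88). The causes were not tested. Among the counts of the other lists, 76 moved by over 1.5 times and 210 did not. The lowest count among the 10 factors was 54, and precision is limited by 2 libraries a group.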
